A study of Mus musculus with 6 samples.

Results

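To determine how genes for splicing factors differed between saline and microbead retina, 29 genes of the SR and hnRNP families were read from a whole-retina RNA-seq table of 31169 mouse genes. The members were the genes whose symbol begins with Srsf (serine- and arginine-rich splicing factors, 10 genes) or Hnrnp (heterogeneous nuclear ribonucleoproteins, 19 genes), without a pseudogene or opposite-strand mark in the symbol, and with at least 10 counts in 3 or more of the 6 libraries. Of 31 symbols with these beginnings, *Hnrnpa1l2-ps* was dropped by its name and *Hnrnpu* by its counts. *Hnrnpu* had 0 counts in 5 libraries and 1 in microbead replicate 2, and since how the counting treated this gene is not stated, these counts are not read as its level. The lowest member, *Srsf12*, had 222 counts in its smallest library, so no member lay near the minimum. All 29 members passed the filter on low counts. *Srsf1* was not among the 31 symbols and was not analysed here, so the SR counts, sums and shares leave it out.

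Poly(A) RNA of whole retina came from C57BL/6 mice, described in the methods as male, whose eyes were injected in the anterior chamber at 1 month of age. Control eyes received saline (3 libraries) and treated eyes received 15 μm polystyrene microbeads (3 libraries). The volume is given as 1 μL in the sample records, while the paper's methods state a larger one. The paper's legend for its RNA sequencing also counts more retinas per group than the libraries here. The beads raise the pressure in the eye and serve as a model of glaucoma, and both groups were harvested 4 weeks later, at 2 months of age. Injections were bilateral, and the records do not say which retinas came from the same mouse or whether retinas were pooled, so the p-values below measure the spread between these libraries, which may be partly technical.

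SR proteins bind pre-mRNA through RNA recognition motifs and, through a tail rich in arginine and serine, draw the spliceosome to nearby exons. Kinases of the SRPK and CLK families phosphorylate that tail. The hnRNP proteins coat nascent transcripts, and many of them repress exons, while others act on mRNA export, stability and translation. Genes of both families commonly control their own level through alternative exons or retained introns that send the transcript to decay, and the retina is a tissue in which faults of core splicing proteins cause photoreceptor loss.

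Total counts ran from 36085737 to 46481382 in saline and from 13574949 to 19834366 in microbead libraries. Genes of the mitochondrial genome took 3.19% to 3.57% of the counts in saline and 8.90% to 10.6% in microbead libraries. The sequencing names in the sample descriptions form one series for saline and another for microbead libraries, whereas the titles run on in one numbering, and anything that differed between these series cannot be told apart from the injection. Rod markers, which define the bulk of this tissue, summed to 64335 to 84666 CPM (counts per 1000000, on library sizes scaled by the TMM method) in saline and 57338 to 70894 CPM in microbead retina. Saline replicate 3 held 365 CPM of lens markers, as compared to 28.5 CPM in saline replicate 1 and 0.650 to 1.69 CPM in the other libraries. Markers of retinal ganglion cells summed to 369 CPM in saline replicate 1 and to 901 to 1362 CPM elsewhere. The 5 endothelial markers summed to 80.9 to 106.6 CPM in saline and 45.6 to 60.6 CPM in microbead retina, with 2 of 5 called lower, and the part of this in the members' differences was not tested. In whole tissue, fewer cells of a type and less RNA per cell cannot be told apart.

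In microbead retina, 5 members were higher than in saline retina and 2 were lower at an adjusted p-value under 0.05 from edgeR's quasi-likelihood test over all 17707 tested genes. The SR genes *Srsf5* and *Srsf6* and the hnRNP genes *Hnrnph1*, *Hnrnph3* and *Hnrnpdl* rose, and *Hnrnpa0* and *Hnrnpul2* fell. The 7 called members are 24.1% of the 29, beside 12.8% of all tested genes. Of the 29 members, 5 were higher in microbead retina, beside 6.46% of all tested genes. The 2 lower members of 29 are near the background share of 6.31%. Every member had a mean of at least 14.2 CPM, and among the 10351 tested genes with at least 10 CPM the called share was 15.3%, with 7.52% higher and 7.81% lower. The median log2 fold change of the members was 0.17, with 0.43 for the 10 SR genes and 0.05 for the 19 hnRNP genes, beside -0.03 for all tested genes. The difference between the families was not tested.

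**Figure D1:**
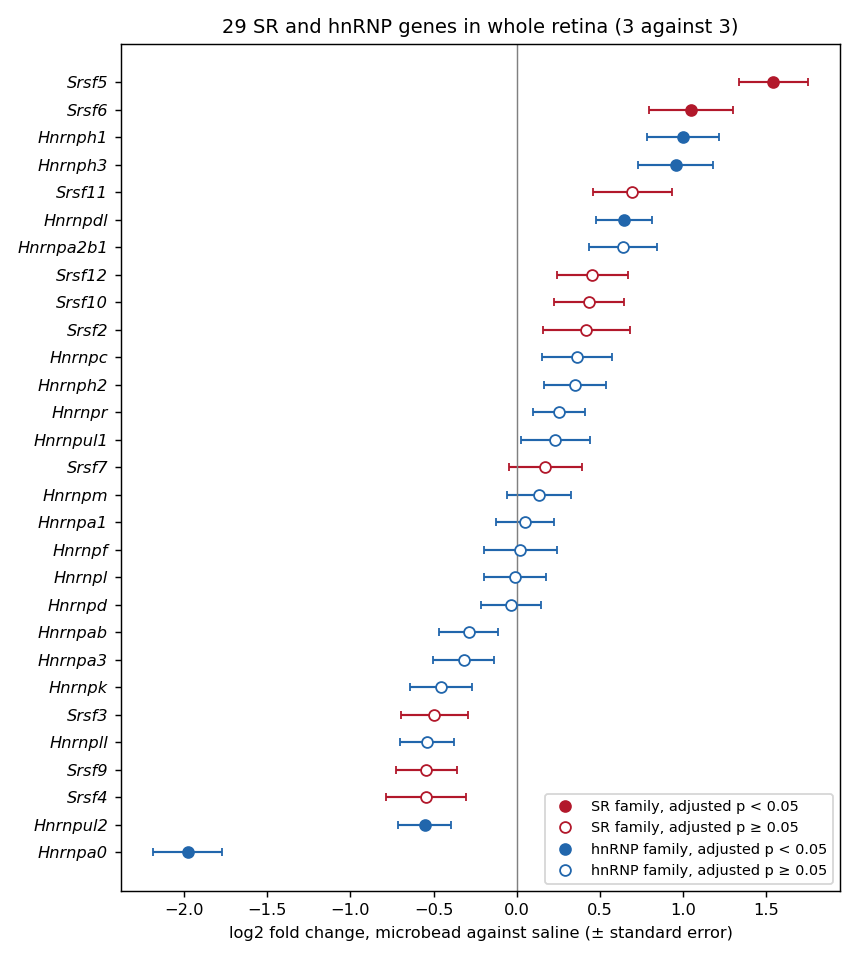
Log2 fold change of each of the 29 members, microbead against saline (x axis, log2 scale), with bars of 1 standard error from edgeR; red marks SR genes, blue marks hnRNP genes, and filled points have an adjusted p-value under 0.05. The values run from -1.98 for *Hnrnpa0* to 1.54 for *Srsf5*, and 22 open points lie between -0.55 and 0.69.

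The libraries of the groups did not overlap for 17 members (58.6%), beside 37.8% of all tested genes. Of these 17, 9 were higher (background 18.8%) and 8 lower (background 18.9%) in microbead retina, and 10 did not pass the adjusted threshold. At an unadjusted p-value under 0.05, 14 members passed (48.3%), beside 31.4% of all tested genes. For non-overlap and unadjusted p-values, the shares among genes with at least 10 CPM were not counted. Standard errors of the members' log2 fold changes lay between 0.16 and 0.26.

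The promoters of 4 called members are shown because these genes had the largest changes in each direction for which the start given by RefSeq lay within 50 bases of that given by GENCODE. Each is the 250 bases before the RefSeq start on GRCm38.p6, 5′ to 3′ on the strand of the gene, with matches to 4 short motifs on either strand in capitals. These were the GC box GGGCGG, the CCAAT box CCAAT, the ETS motif CCGGAAG and the CRE core TGACG, each also searched as its reverse complement. *Srsf5* lies at chr12:80945249-80945498 on the plus strand, *Srsf6* at chr2:162931258-162931507 on the plus strand, *Hnrnph1* at chr11:50376740-50376989 on the plus strand and *Hnrnpa0* at chr13:58128557-58128806 on the minus strand.
Srsf5: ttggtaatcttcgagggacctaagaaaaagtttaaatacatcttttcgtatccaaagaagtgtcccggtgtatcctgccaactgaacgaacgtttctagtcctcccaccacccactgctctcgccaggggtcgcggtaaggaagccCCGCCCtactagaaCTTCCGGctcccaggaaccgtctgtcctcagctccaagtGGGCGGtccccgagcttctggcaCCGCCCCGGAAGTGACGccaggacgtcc
Srsf6: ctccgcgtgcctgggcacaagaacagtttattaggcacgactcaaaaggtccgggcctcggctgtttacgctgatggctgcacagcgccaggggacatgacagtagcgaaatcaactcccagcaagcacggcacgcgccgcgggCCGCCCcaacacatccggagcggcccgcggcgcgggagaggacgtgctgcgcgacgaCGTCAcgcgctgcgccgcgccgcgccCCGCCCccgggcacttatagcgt
Hnrnph1: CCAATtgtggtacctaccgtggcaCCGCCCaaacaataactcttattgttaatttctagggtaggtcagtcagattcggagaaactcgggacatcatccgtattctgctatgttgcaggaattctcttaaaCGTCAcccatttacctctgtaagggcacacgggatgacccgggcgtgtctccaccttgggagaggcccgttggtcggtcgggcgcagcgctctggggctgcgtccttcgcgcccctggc
Hnrnpa0: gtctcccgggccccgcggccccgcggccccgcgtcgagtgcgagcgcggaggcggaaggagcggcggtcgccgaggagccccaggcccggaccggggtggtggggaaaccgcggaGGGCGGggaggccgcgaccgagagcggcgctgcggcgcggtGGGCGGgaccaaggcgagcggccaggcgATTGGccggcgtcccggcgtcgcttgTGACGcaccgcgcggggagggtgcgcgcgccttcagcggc
The *Srsf5* window holds 3 GC boxes, 2 ETS motifs and 1 CRE core, and the run of capitals near its end is a GC box, an ETS motif and a CRE core in sequence, of which the first 2 share bases. The *Srsf6* window holds 2 GC boxes and 1 CRE core, and that of *Hnrnph1* 1 GC box, 1 CCAAT box and 1 CRE core. For *Hnrnph1*, RefSeq lists 5 starts, of which the one shown coincides with the GENCODE start. The *Hnrnpa0* window holds 2 GC boxes, 1 CCAAT box and 1 CRE core and was the richest in G and C of the member promoters, at 81.2%, as compared to 56.8% for *Srsf5*, 68.4% for *Srsf6* and 55.6% for *Hnrnph1*.

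A RefSeq promoter was matched for 27 of the 29 members, the others being *Hnrnpul2* and *Hnrnpll*. On either strand, a GC box stood in 21 of the 27 (77.8%), beside 32.7% of 32851 promoters of the same length. The CCAAT box stood in 15 (55.6%, beside 33.8%), the CRE core in 14 (51.9%, beside 17.8%) and the ETS motif in 6 (22.2%, beside 6.91%). The median GC content was 65.2% over the member promoters and 52.4% over all promoters, and motifs made of G and C are more frequent where that content is high. The TATA motif TATAAA stood in 3 (11.1%, beside 12.4%) and the E-box CACGTG in 2 (7.41%, beside 6.02%). The full CRE motif TGACGTCA, in 1.55% of all promoters, had no match in these windows. The background shares are over all promoters searched, not only those of tested or coding genes, and RefSeq can list several starts for a gene. Shares among promoters of tested or coding genes were not counted. Whether the members differ from such genes in these motifs was therefore not tested. A GC box stood in the windows of all 6 called members with a promoter, in those that rose as in that of *Hnrnpa0*, which fell.

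*Srsf5*, which encodes SRp40, a protein that binds exonic enhancers, had the largest rise of the members. Its level was 342, 274 and 279.8 CPM in saline replicates 1 to 3 and 1067, 831 and 713 CPM in microbead replicates 1 to 3. The lowest microbead library was above the highest saline library by a wide margin. The fitted change was 2.91-fold, or 1.54 ± 0.21 on the log2 scale (standard error), with an adjusted p of 0.00785 from edgeR. Without any 1 library the log2 fold change stayed between 1.36 and 1.66, and the adjusted p from edgeR was at most 0.0435.

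*Srsf6* encodes SRp55, a close relative of *Srsf5* and *Srsf4* with a pair of RNA recognition motifs. Its level was 166, 122 and 82.3 CPM in the saline libraries and 292, 235 and 239 CPM in the microbead libraries. The groups did not overlap, although the saline libraries differed among themselves by more than the microbead libraries did, with saline replicate 3 lowest. The log2 fold change was 1.05 ± 0.25 (adjusted p = 0.0297 from edgeR). The call was lost without saline replicate 2 and without any 1 of the microbead libraries, with adjusted p-values from edgeR of 0.10, 0.0843, 0.0640 and 0.105, while the log2 fold change stayed between 0.82 and 1.32.

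Other SR genes did not pass the threshold. *Srsf11*, which encodes a protein linked to the polypyrimidine tract factor U2AF, had 145, 130 and 83.1 CPM in saline and 185, 232 and 163 CPM in microbead libraries. These groups did not overlap, and the log2 fold change was 0.69 ± 0.24 (adjusted p = 0.0798 from edgeR). *Srsf2* (SC35, a marker of nuclear speckles) overlapped between groups, with 206, 169 and 99.3 CPM in saline and 249, 202 and 182 CPM in microbead libraries. *Srsf10*, whose product represses splicing when dephosphorylated, and *Srsf12*, its relative, had log2 fold changes of 0.43 ± 0.21 and 0.45 ± 0.22. *Srsf7*, which acts in splicing and in mRNA export, stood at 0.17 ± 0.22.

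The other 3 SR genes had lower values in microbead retina, with no overlap between groups and no call. *Srsf3*, which encodes the smallest of the SR proteins, had 246, 202 and 208 CPM in saline and 190.5, 154 and 121 CPM in microbead libraries (log2 fold change -0.50 ± 0.20, adjusted p = 0.127 from edgeR). *Srsf9* had 40.6, 35.2 and 30.3 CPM in saline and 26.9, 22.2 and 23.6 CPM in microbead libraries (-0.54 ± 0.18, adjusted p = 0.0786 from edgeR). *Srsf4* encodes SRp75, and its libraries held 47.2, 48.1 and 40.9 CPM in saline and 20.1, 37.0 and 36.3 CPM in microbead (-0.55 ± 0.24, adjusted p = 0.155 from edgeR). Microbead replicate 1 was the lowest of the microbead libraries for *Srsf4* and the highest for 8 of the 10 SR genes. Of the exonic length of *Srsf4*, 43.0% overlaps *Gm12992* on the opposite strand. Whether the counting used strand is not stated, so reads of these genes may not have been told apart.

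*Hnrnph1* and *Hnrnph3* belong to the H/F group, whose proteins bind runs of G. *Hnrnph1* had 457, 397 and 328 CPM in saline and 960.1, 782 and 621 CPM in microbead libraries. The groups were separate, and the level doubled, with a log2 fold change of 1.00 ± 0.22 (adjusted p = 0.0226 from edgeR). The adjusted p from edgeR was 0.0830 without saline replicate 2, and 0.0594, 0.0583 and 0.0700 without microbead replicates 1, 2 and 3. *Hnrnph3* had 136, 112 and 86.0 CPM in saline and 268, 185 and 196 CPM in microbead libraries, again without overlap. Its log2 fold change was 0.95 ± 0.22 (adjusted p = 0.0280 from edgeR), and it kept the call without saline replicate 1 (0.0181) but in none of the other 5 fits with 1 library left out (0.0523 to 0.0978 from edgeR). The other H/F genes, *Hnrnph2* (0.35 ± 0.18) and *Hnrnpf* (0.02 ± 0.22), were not called.

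*Hnrnpdl*, whose product resembles that of *Hnrnpd* and can regulate its own splicing, had 244, 226 and 219 CPM in saline and 405, 350.4 and 321 CPM in microbead libraries. The groups did not overlap, and both were narrow. The log2 fold change was 0.64 ± 0.17 (adjusted p = 0.0379 from edgeR). In the fits with 1 library left out it lay between 0.54 and 0.71, with adjusted p-values of 0.0506 to 0.154 from edgeR, so that this call rested on all 6 libraries. *Hnrnpd* itself, which encodes the AU-rich element binding protein AUF1, stood at -0.04 ± 0.18, and *Hnrnpab*, of the same group, at -0.29 ± 0.18.

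*Hnrnpa0* had the largest change of all members and fell. It encodes an A/B-type hnRNP that binds AU-rich elements in mRNA and is phosphorylated by the stress kinase MK2. Its level was 223, 222 and 263 CPM in saline and 68.1, 45.3 and 66.5 CPM in microbead libraries. The highest microbead library lay far under the lowest saline library. The fitted level was 3.94-fold lower, at -1.98 ± 0.21 on the log2 scale (adjusted p = 0.00298 from edgeR), and between -2.08 and -1.80 without any 1 library, with adjusted p-values of at most 0.0360 from edgeR. *Hnrnpa0* lies at chr13:58125879-58128556 on the minus strand of GRCm38 (GENCODE vM21), with 1 annotated transcript, and is the only member whose longest coding transcript has 1 exon. No annotated gene overlaps it, and none of its 100-base stretches occurs in transcripts of another locus. The 441 tested coding genes with 1 exon had a median log2 fold change of -0.24, with 13.2% called lower, as compared to -0.07 and 5.98% for 14108 genes with more exons. The part of that difference in the fall of *Hnrnpa0* was not tested.

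The other A/B genes were not called. *Hnrnpa2b1*, a regulator of splicing and of RNA transport in neurons, had the highest mean CPM of the members over the 6 libraries (683 CPM, beside 584 CPM for *Srsf5*), although *Srsf5* was above it in each microbead library. Its libraries held 629, 494 and 479.6 CPM in saline and 1001, 811 and 684 CPM in microbead, without overlap. The log2 fold change of 0.64 ± 0.20 did not pass the threshold (adjusted p = 0.0678 from edgeR), and it did without saline replicate 1 (0.0475 from edgeR). *Hnrnpa1*, the best-known splicing repressor of the family, stood at 0.05 ± 0.18. *Hnrnpa3* had 239, 262 and 306 CPM in saline and 235, 230.5 and 182 CPM in microbead libraries, without overlap (-0.32 ± 0.18).

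*Hnrnpul2*, a relative of the scaffold protein hnRNP U with a role in the DNA damage response, fell by the smallest amount of the called members. Its level was 294, 302 and 307 CPM in saline and 190.2, 224 and 201 CPM in microbead libraries. The saline libraries were close to each other and all lay above the microbead libraries. The log2 fold change was -0.55 ± 0.16 (adjusted p = 0.0491 from edgeR). Without any 1 library it lay between -0.61 and -0.51, and the adjusted p from edgeR was then 0.0722 to 0.172. Its relative *Hnrnpul1* stood at 0.23 ± 0.21.

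*Hnrnpll*, which silences exons of the CD45 transcript in lymphocytes, was just over the threshold. It had 64.1, 66.9 and 63.7 CPM in saline and 42.7, 50.5 and 40.6 CPM in microbead libraries (log2 fold change -0.54 ± 0.16, adjusted p = 0.0576 from edgeR), without overlap. *Hnrnpl*, which binds CA repeats, stood at -0.01 ± 0.19. *Hnrnpk*, a KH-domain protein that binds runs of C, did not overlap between groups, with 412, 440.1 and 559 CPM in saline and 375, 349 and 306 CPM in microbead libraries, and was not called (-0.45 ± 0.19, adjusted p = 0.129 from edgeR). *Hnrnpc*, which binds runs of U and guards against exons from transposable elements, stood at 0.36 ± 0.21, *Hnrnpr* at 0.25 ± 0.16 and *Hnrnpm* at 0.13 ± 0.19. A p-value over the threshold does not show that these genes were equal between the groups.

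**Figure D2:**
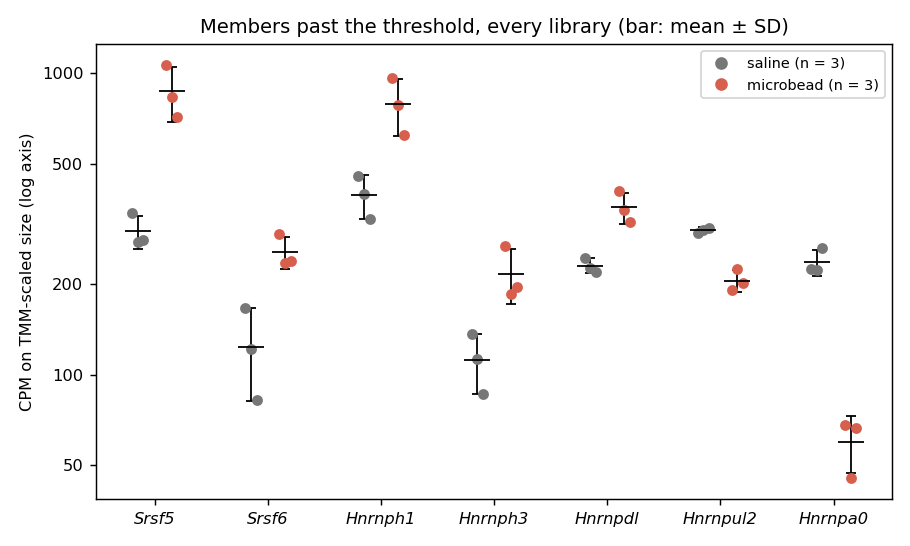
CPM on TMM-scaled library size (y axis, log scale) of the 7 members past the threshold in each saline (grey, n = 3) and microbead (red, n = 3) library, with horizontal lines for the mean and bars for the SD. No group overlaps its counterpart, and *Hnrnpa0* has the widest separation, with means of 236 and 59.9 CPM.

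Per kilobase of the longest coding transcript, *Hnrnpa2b1* was highest of the members in saline retina at 309 CPM per kb, followed by *Srsf5* at 191 and *Hnrnph1* at 162 CPM per kb. In microbead retina *Srsf5* stood first at 555 CPM per kb, *Hnrnpa2b1* at 481 and *Hnrnph1* at 325 CPM per kb. The order of the leading pair differed beyond the spread in saline, where *Hnrnpa2b1* ran from 278 to 364 and *Srsf5* from 175 to 218 CPM per kb. In microbead retina the ranges overlapped (396 to 579 and 454 to 680.5 CPM per kb), while within each of the 3 libraries *Srsf5* was the higher of the pair. *Hnrnpa0* was in place 8 of 29 in saline retina, at 88.2 CPM per kb, and in place 24 in microbead retina, at 22.4 CPM per kb. The lowest member in both groups was *Srsf12*, at 4.08 and 5.60 CPM per kb. Counts are per gene, while *Hnrnpa2b1* has 6584 exonic bases and 1728 in its longest coding transcript. The order and places of the members can therefore depend on the length chosen.

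The summed level of the 10 SR genes was 1428, 1189 and 992 CPM in saline and 2339, 1957 and 1684 CPM in microbead libraries, given as a description with no test. The log2 ratio of the group means was 0.73, and 0.31 when *Srsf5* was left out of the sum. *Srsf5* made up 25.1% ± 2.73 (SD, n = 3) of the SR sum in saline and 43.5% ± 1.87 in microbead retina. The 19 hnRNP genes summed to 4972, 4609.5 and 4879.7 CPM in saline and 6169, 5308 and 4900.2 CPM in microbead libraries, a log2 ratio of 0.18, or 0.08 without *Hnrnph1*. Within that sum the share of *Hnrnph1* was 8.17% ± 1.29 in saline and 14.3% ± 1.49 in microbead retina, and that of *Hnrnpa0* was 4.90% ± 0.46 and 1.10% ± 0.25.

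Ratios of related members within a library do not depend on the scaling of library sizes, and they are given as descriptions with no test. *Srsf5* over *Srsf4* was 5.71 to 7.25 in saline and 19.6 to 53.0 in microbead libraries. *Srsf6* over *Srsf4* was 2.01 to 3.52 and 6.34 to 14.5, so that the highest ratio of each pair was that of microbead replicate 1, where *Srsf4* was lowest. *Srsf6* over *Srsf5* overlapped between the groups, at 0.294 to 0.486 in saline and 0.273 to 0.335 in microbead libraries. *Hnrnpa1* over *Hnrnpa0* was 1.23 to 1.27 in saline, a narrow range, and 4.03 to 6.58 in microbead libraries. Reads that *Hnrnpa1* and *Hnrnpf* share with copies elsewhere leave both levels uncertain, since 25.9% and 31.5% of their 100-base stretches occur in transcripts of another locus. *Hnrnph1* over *Hnrnpf* was 4.42 to 5.99 in saline and 9.64 to 13.0 in microbead libraries, and *Hnrnpdl* over *Hnrnpd* was 0.873 to 1.08 and 1.47 to 1.67. The H genes *Hnrnph3* and *Hnrnph1*, which both rose, had a ratio of 0.281 ± 0.02 in saline and 0.277 ± 0.04 in microbead retina, with overlap between the groups.

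**Figure D3:**
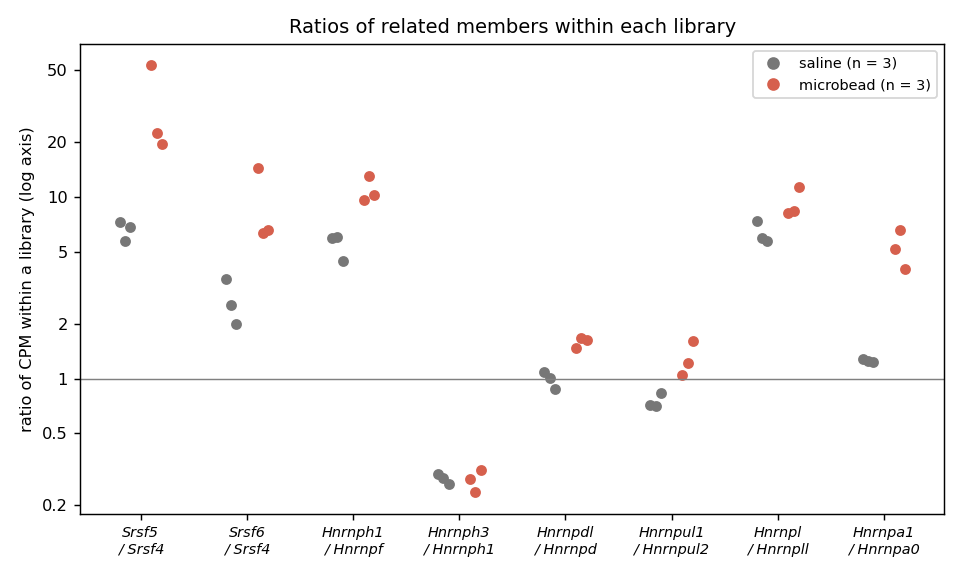
Ratio of the CPM of related members within each library (y axis, log scale), for 8 pairs in saline (grey, n = 3) and microbead (red, n = 3) retina, with a line at equal levels. The groups are separate in every pair shown apart from *Hnrnph3* over *Hnrnph1*, with means of 0.281 and 0.277.

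Within a group, many members had the same library as the highest or the lowest. Saline replicate 3 was the lowest saline library for 7 of the 10 SR genes, and saline replicate 1 the highest for 8. For the 19 hnRNP genes, saline replicate 3 was the highest saline library for 10 and the lowest for 7, and saline replicate 1 the highest for 8. Microbead replicate 1 was the highest microbead library for 8 SR and 14 hnRNP genes, and microbead replicate 3 the lowest for 6 and 11. Saline replicate 3 is also the library with 365 CPM of lens markers. Pigment epithelium markers summed to 161 CPM there, 8.02 and 35.8 CPM in the other saline libraries and 76.6 to 90.3 CPM in microbead libraries. Mueller glia markers summed to 7435 CPM there, 4322 and 4869 CPM in the other saline libraries and 3978 to 4943 CPM in microbead libraries. The part of these marker levels in the SR differences was not tested. Without saline replicate 3, 4 of the 7 calls were kept (*Srsf5*, *Srsf6*, *Hnrnph1* and *Hnrnpa0*), when 8.42% of all tested genes were called.

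How many members were called varied with the libraries used. When saline replicate 1, 2 or 3 was left out, 6, 2 and 4 members passed, where 15.1%, 1.68% and 8.42% of all tested genes were called. With any 1 microbead library left out, 2 members passed, where 3.89%, 4.01% and 0.238% of genes were called for replicates 1, 2 and 3. In all 6 of these fits *Srsf5* and *Hnrnpa0* were past the threshold, and they were the only members for which this held. With the libraries thinned to the smallest total of 13574949 counts, or with mitochondrial genes left out of the scaling, 6 of the 7 calls were kept and *Hnrnpul2* was lost, giving 5 higher and 1 lower. In these fits 13.4% and 12.6% of the tested genes were called.

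**Figure D4:**
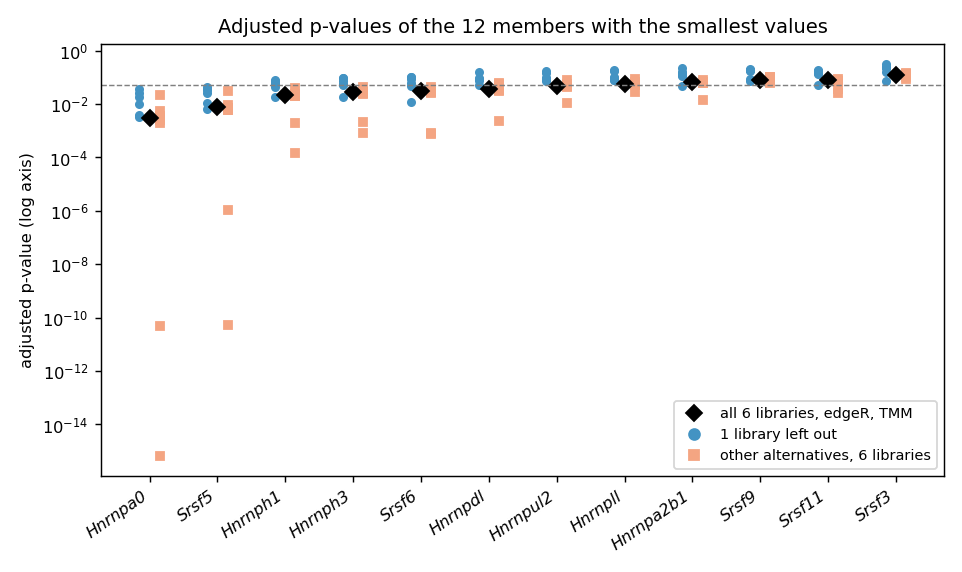
Adjusted p-value (y axis, log scale) of the 12 members with the smallest values, with all 6 libraries (black), with 1 library left out (blue, 6 fits) and under 8 other processing choices (orange), and a dashed line at 0.05. Only *Hnrnpa0* and *Srsf5* have every point under the line, with at most 0.0360 and 0.0435 when 1 library was left out.

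Annotated transcripts of the members were compared with their changes as a description. In GENCODE vM21, 20 of the 29 members have a transcript with a retained intron and 17 have one marked for nonsense-mediated decay. Among the 5 members that rose, 4 have each kind, and *Hnrnph1* is the one without. Of the 2 that fell, *Hnrnpul2* has a retained-intron transcript. The share of exonic bases found only in retained-intron transcripts had a Spearman rho of 0.05 (Pearson r 0.06) with the log2 fold change over the 29 members, which share the same 6 libraries. Over 14549 tested coding genes this rho was 0.097 (Pearson r 0.093). Over all tested coding genes, the median change on the log2 scale stood at -0.12 in the 6455 genes with no such bases and at 0.08 in the 1049 genes in which they make up more than 50% of the exonic length. Gene counts do not tell which transcript a read came from, so a level here can include unproductive transcripts. Other features were also set beside the log2 fold changes of the 29 members. Spearman rho was -0.31 (Pearson r -0.42) for the GC content of the longest coding transcript and -0.11 (-0.01) for its length. For mean CPM it was 0.31 (0.40).

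For several members that were not called, reads may also be shared with other loci. Besides *Srsf4*, more than 20% of the exonic length overlaps a gene on the opposite strand for *Hnrnpab* (29.1%), *Hnrnpf* (26.5%) and *Srsf2* (25.3%). For *Hnrnpa3*, 25.6% of 100-base stretches occur in transcripts of another locus. Among the called members the highest such share was 5.46%, for *Srsf5*, while 5.06% of the exonic length of *Hnrnpul2* overlaps another gene on its own strand.

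Genes that act with the members were counted in 6 lists, which hold 157 tested genes. Of these, 28 rose and 8 fell, or 22.9% called, beside 12.8% of all tested genes (6.46% higher and 6.31% lower), with a median log2 fold change of 0.16 beside -0.03. Among tested genes with a mean of at least 10 CPM, 15.3% were called (7.52% higher and 7.81% lower). These counts also depended on single libraries: they were 37, 4 and 21 of 157 without saline replicates 1, 2 and 3 (beside 15.1%, 1.68% and 8.42% of all tested genes), and 14 and 10 without microbead replicates 1 and 2 (beside 3.89% and 4.01%). Without microbead replicate 3, where 0.238% of all tested genes were called, edgeR called 0 of the 157, with 60 at an unadjusted p under 0.05.

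The list of 30 SR-related and SR-like genes lies outside the Srsf series, and many of its genes carry arginine- and serine-rich stretches. Of these 30, 9 rose (30%, beside 6.46% of all tested genes) and the other 21 did not pass, with a median of 0.52. *Snrnp70*, the core protein of the U1 particle that recognises the start of introns, had 408, 280.0 and 85.5 CPM in saline and 594, 835 and 1061 CPM in microbead libraries. The groups did not overlap, and saline replicate 3 was far under the other saline libraries (log2 fold change 1.69 ± 0.47, adjusted p = 0.0459 from edgeR). *Arglu1*, *Pnn* and *Luc7l3*, which encode splicing proteins of the nucleus, rose by log2 fold changes of 1.57 ± 0.30, 1.47 ± 0.25 and 1.46 ± 0.33. For each of these 4 genes the lowest library was saline replicate 3. The list gave 12, 1 and 6 calls without saline replicates 1, 2 and 3, or 40%, 3.33% and 20% of it. All tested genes gave 15.1%, 1.68% and 8.42% in those fits. Without microbead replicates 1 and 2 the list gave 5 and 2 calls (16.7% and 6.67%, beside 3.89% and 4.01% of all tested genes). Without microbead replicate 3 edgeR called 0 (beside 0.238% of all tested genes), with 13 at an unadjusted p under 0.05.

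Of 23 other hnRNP and hnRNP-like genes, 7 rose and 1 fell (34.8% called, beside 12.8% of all tested genes), with a median of 0.39. *Tia1*, which helps U1 to bind weak splice sites and forms stress granules, rose 2.22-fold (adjusted p = 0.0423 from edgeR). *Rbmx*, which encodes hnRNP G, had 89.7, 76.7 and 74.0 CPM in saline and 177, 156 and 144 CPM in microbead libraries (0.99 ± 0.17, adjusted p = 0.0143 from edgeR). *Ptbp2*, the neuronal polypyrimidine tract binding protein, rose by 0.89 ± 0.18. *Pcbp1*, which encodes hnRNP E1, was the one that fell (-0.81 ± 0.19, adjusted p = 0.0280 from edgeR). Counted together with the members, these genes give 15 calls among the wider family. The list gave 5 and 3 calls without saline replicates 1 and 3 (21.7% and 13%, beside 15.1% and 8.42% of all tested genes). Without microbead replicate 1 or 2 it gave 1 call (4.35%, beside 3.89% and 4.01% of all tested genes). Without saline replicate 2 or microbead replicate 3 edgeR called 0, beside 1.68% and 0.238% of all tested genes. In these fits 10 and 12 genes of the list had an unadjusted p under 0.05.

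Among 20 tested genes for kinases, phosphatases, methyltransferases and import receptors of SR and hnRNP proteins, 3 rose and 3 fell (30% called, beside 12.8% of all tested genes), with a median of 0.11. *Clk2*, which phosphorylates SR proteins in the nucleus, had 52.5, 41.7 and 24.1 CPM in saline and 115, 110.0 and 114 CPM in microbead libraries. The microbead libraries were close to each other and more than 2 times above every saline library (1.52 ± 0.26, adjusted p = 0.0144 from edgeR). *Clk3* rose by 1.29 ± 0.21 (adjusted p = 0.0129 from edgeR). *Clk1* and *Clk4*, named after their values were seen, did not pass (1.21 ± 0.36 and 0.63 ± 0.28, with adjusted p-values of 0.0531 and 0.156 from edgeR). *Ppp1cb*, a catalytic subunit of protein phosphatase 1, fell by 0.85 on the log2 scale and *Tnpo1*, the import receptor of hnRNP A1, fell by 0.83. The remaining calls of this list, also named after their values were seen, were *Cdk11b* (0.70 ± 0.18) and *Dyrk1a* (-0.70 ± 0.15). Without saline replicates 1, 2 and 3, 40%, 10% and 25% of the list were called, beside 15.1%, 1.68% and 8.42% of all tested genes. Without microbead replicate 1 or 2 the share was 10% (beside 3.89% and 4.01%), and edgeR called 0 without microbead replicate 3 (beside 0.238%). No fall was called without saline replicate 2 or without any 1 microbead library.

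In the remaining lists 15.4%, 16.7% and 13.3% of the genes were called, beside 12.8% of all tested genes. With 1 library left out, these shares ran from 0% up to 7.69%, 23.3% and 13.3%, beside 0.238% to 15.1% of all tested genes. Of 39 tested genes of the small nuclear ribonucleoproteins and the core spliceosome, 3 rose and 3 fell, with a median of -0.13. *Snrpf* (0.98 ± 0.24), *Prpf3* (0.92 ± 0.19) and *Snrpd3* (0.79 ± 0.23) were higher, and *Snrpd2* (-0.75 ± 0.21) had the largest fall among the called genes of the list. The other falls, *Snrnp200* (-0.75 ± 0.19) and *Snrpb* (-0.69 ± 0.18), were named after their values were seen. Of 30 tested regulators of tissue-specific splicing, 4 rose and 1 fell, with a median of 0.02, and the rises were those of *Celf5* (1.26 ± 0.22), *Celf3* (1.21 ± 0.22), *Rbm25* (1.01 ± 0.29) and *Msi1* (0.86 ± 0.19), while *Celf2*, named in the same way, fell (-0.72 ± 0.17). Of 15 genes of the exon junction complex and of nonsense-mediated decay, *Casc3* (0.99 ± 0.17) and *Upf3b* (0.93 ± 0.24) rose, with a median of -0.01 over the list.

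**Figure D5:**
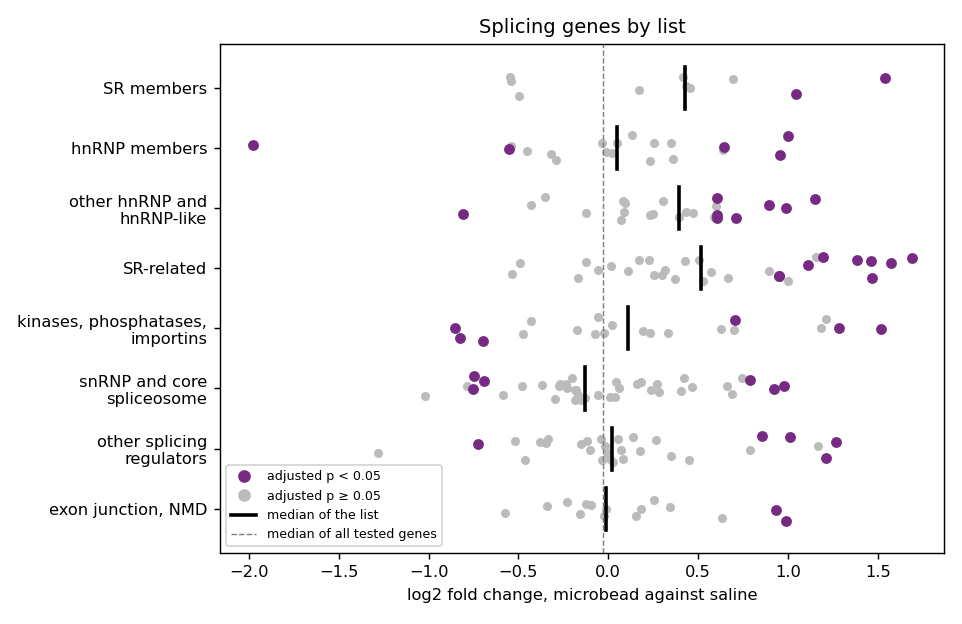
Log2 fold change, microbead against saline (x axis), of each tested gene of the SR members, the hnRNP members and the 6 lists, with purple points for an adjusted p-value under 0.05 from edgeR, black bars for the median of each list and a dashed line for the median of all tested genes at -0.03. The SR-related list has the highest median, 0.52, and the core spliceosome list the lowest, -0.13.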

How the data were processed

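Stranded poly(A) libraries of whole retina were sequenced as read pairs, 3 of saline- and 3 of microbead-injected eyes. The authors aligned the reads with STAR 2.5.3a to GRCm38.p5 with the GENCODE vM12 annotation, obtained gene counts with featureCounts 1.15.2, and deposited the raw count of each gene in each library. The deposited table also holds the authors' DESeq2 1.14 comparison (a mean signal of normalized counts, a log2 fold change, a fold ratio, p-value, adjusted p-value and a call), none of which was used.

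Here, filterByExpr (at least 10 counts, total of 15) kept 17707 genes, and libraries were scaled by TMM. The groups were tested with glmQLFTest of edgeR 4.0.16 (R 4.3.3), two-sided, and p-values were adjusted by Benjamini-Hochberg over all 17707 genes, with 0.05 as the threshold. CPM are counts per 1000000 of scaled library size. Alternatives used limma 3.58.1, DESeq2 1.42.0, RLE scaling, other filters, a block on the replicate number, thinning and fits without 1 library. The edgeR fit was tested on simulated data, where most of the smaller changes were missed and the share of false calls was above the nominal threshold. A chi-square of 22.0 or more per degree of freedom separated any pair of libraries of a group, beyond sampling noise.

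The members and lists were chosen with earlier results of these data known. Named were all called members, the 10 with the smallest p-values and the 2 most abundant of each family, other members with their level and fold change, and up to 4 called genes of each list by size of change with a mean of at least 1 CPM. Transcript lengths, overlaps and shared stretches came from GENCODE vM21, which holds 99.5% of the genes in the table, and promoters from RefSeq.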

Additional observations from a re-analysis of the deposited data

How the results depend on the processing

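With all 6 libraries, 7 members (5 higher, 2 lower) were called. *Hnrnpul2* was lost under RLE scaling, without mitochondrial genes in the scaling, and in thinned libraries, which each gave 5 higher and 1 lower. Of the genes tested in these settings, 12.6%, 12.6% and 13.4% were called, beside 12.8% in the main fit. With no filter on low counts, 7 members were called (*Srsf11* gained, *Hnrnpdl* lost), and 7 with at least 10 counts in every library or with limma-voom. The called shares of the genes tested there were 11.9%, 15% and 12.5%. DESeq2 called 10 (7 higher, 3 lower), adding *Hnrnpa2b1*, *Hnrnpll* and *Srsf11*, where 20.2% of all tested genes were called. An adjusted p under 0.01 left 2 members, a change of more than 2-fold left 4, and counting family genes with other symbols gave 15. The shares of all tested genes under the stricter limits were not counted. The number of genes called, 2261 in all, was 3720 with no filter and 3582 with DESeq2.

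Same-numbered libraries did not deviate together (correlations of -0.04, 0.14 and 0.01 over 17707 genes), and not every library correlated best with its own number, so the numbers were not taken to pair the libraries. With the replicate number as a block, 905 genes (5.11% of those tested) and 5 members (4 higher, 1 lower) were called, without *Hnrnpdl* and *Hnrnpul2*.

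When 1 library was left out, the number of members called ranged from 2 to 6, those higher from 1 to 5, those lower was 1 in each case, and the number of genes ranged from 46 to 2621. The SR sum kept a log2 ratio of 0.60 to 0.87 and the hnRNP sum of 0.08 to 0.25. The sign changed only for the 6 members named next, whose log2 fold changes lay between -0.04 and 0.17. *Hnrnpl* was at 0.011 under RLE scaling, 0.012 without mitochondrial genes, 0.011 with DESeq2, 0.023 in thinned libraries, and between -0.11 and 0.10 with a library left out. *Hnrnpf* was at -0.031 with no filter, -0.011 with limma-voom, -0.019 with the replicate block, and between -0.27 and 0.16 with a library left out. *Hnrnpa1* was at -0.0023 with no filter and between -0.069 and 0.13 with a library left out. The ranges with a library left out were -0.20 to 0.046 for *Hnrnpd*, -0.054 to 0.26 for *Hnrnpm* and -0.058 to 0.30 for *Srsf7*. The causes of these shifts were not tested. Of 406 values of single members under the alternatives, 352 kept their direction and side of the threshold.

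With 3 libraries a group, an exact permutation test of 1 value cannot give a p-value under 0.10. Every member had at least 222 counts in every library. Outliers were not tested in groups of 3.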
